A study of Mus musculus with 2 samples.

Results

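Expression of 39 genes of glycolysis and of the response to hypoxia was compared between splenic and lung Tregs. The genes were taken as a fixed list of symbols, and each of the 39 was present among the 24346 symbols listed for both libraries. They fell into 6 roles, which were glucose uptake, upper glycolysis, lower glycolysis, handling of pyruvate and lactate, hypoxia-inducible factor (HIF) with its control, and other genes of the hypoxia response.

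Glycolysis splits glucose into pyruvate in the cytosol, and the lactate dehydrogenases convert pyruvate to lactate. In normal oxygen, prolyl hydroxylases of the Egln family mark HIF alpha subunits, and the ubiquitin ligase component Vhl binds the marked subunits, which are then degraded. When oxygen is low, HIF accumulates and drives many glycolytic genes. Effector T cells use glycolysis strongly after activation, while Tregs are known to depend more on oxidation in mitochondria.

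FDG mice (Foxp3-DTR-GFP) express GFP from the Foxp3 locus, so that GFP marks Tregs. Mice aged 10 to 16 weeks received 50 μg of bleomycin (BLM) through the trachea, and GFP+CD4+ cells were sorted from lung and from spleen on day 15. Cells of 3 mice were pooled for each library, and there was 1 library of spleen and 1 of lung. Both tissues came from BLM-treated mice, so that the comparison is between organs and not between injured and healthy lung. With 1 library for each tissue there was no replicate check, no test was made, and each difference is given as a ratio of these libraries. Values are FPKM, defined as reads scaled to exon length and to the mapped total of a library. They can be set side by side between genes. Whether the deposited values were also scaled between libraries was not given in the sources used here.

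The sort genes were present in both libraries. Cd4 had an FPKM of 195 in spleen and of 179 in lung, and Foxp3, the transcription factor of Tregs, was at 18.7 and 41.8 FPKM. The 10 T cell markers had summed FPKM of 4576 (spleen) and 4375 (lung). Markers of other cells differed more. The 12 macrophage markers, of which none was at 0, had summed FPKM of 684 (spleen) and 31825 (lung). Lyz2 alone gave 376 and 24947 FPKM of these sums. Of the 12, 9 were over 2-fold higher in lung. The others were within 2-fold, Adgre1 at 14.6 and 24.3 FPKM, Csf1r at 43.8 and 50.1, and Mrc1 at 7.64 and 9.41. The 8 neutrophil markers summed to 474 and 1208 FPKM, with Ngp and Ltf at 0 in lung. The 7 epithelial markers summed to 13.2 and 3125 FPKM, of which the club cell gene Scgb1a1 gave 1.48 and 3021 FPKM, while Epcam stood at 8.75 and 1.79 FPKM. The 7 fibroblast markers summed to 0.29 and 163 FPKM. Sftpc and Sftpb of epithelium and Col3a1, Lum, Pdgfra and Mgp of fibroblasts were at 0 in spleen. B cell markers (6) and erythroid markers (6 listed) were lower in lung, with sums of 245 and 126 FPKM and of 25.8 and 0.487 FPKM. The part of these other cells in the values of the glycolysis and hypoxia genes was not tested. No counts were used, but low values fell on multiples of a unit, from which about 9862234 reads in spleen and 12882408 reads in lung were estimated over genes. Members had a median of 638 estimated reads in spleen and 745 in lung, and 8 members had fewer than 100 reads in at least 1 library. Intervals below are 95% exact binomial intervals from these reads and cover counting error only. The cDNA was amplified by PCR without molecular identifiers. Reads can thus be copies of 1 molecule, and the intervals may be too narrow even for counting error.

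Promoters were read from RefSeq (GRCm38.p6) for 36 of the 39 members, with Ero1l found under its current symbol Ero1a and with Slc2a3, Epas1 and Bnip3l named only. HIF binds DNA at a short core, ACGTG or GCGTG, and these letters were searched on both strands in the 250 bases before the most upstream start of each gene. The reverse forms are CACGT and CACGC, and the palindrome CACGTG was counted once for each strand. A core was found in 29 of 36 members (80.6%), in 38.6% of all 27025 genes with a promoter entry, and in 56.4% of the 9167 of those genes that reached 1 FPKM in either library. The stricter form ACGTG was found in 18 members (50%), in 16.5% of all genes and in 22% of the genes at 1 FPKM. The list holds known HIF targets, so the share describes how it was composed. The windows of genes that lay over 2-fold apart between the libraries are shown where they held a core and did not overlap an annotated exon, together with Ldha, the most abundant member. Each window reads 5′ to 3′ toward the start site, and capitals mark the cores.
Hk2: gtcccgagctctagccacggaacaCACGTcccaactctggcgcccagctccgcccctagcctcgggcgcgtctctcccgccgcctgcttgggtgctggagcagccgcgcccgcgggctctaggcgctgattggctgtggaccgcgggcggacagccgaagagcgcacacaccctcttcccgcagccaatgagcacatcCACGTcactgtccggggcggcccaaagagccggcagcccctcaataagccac
Hk3: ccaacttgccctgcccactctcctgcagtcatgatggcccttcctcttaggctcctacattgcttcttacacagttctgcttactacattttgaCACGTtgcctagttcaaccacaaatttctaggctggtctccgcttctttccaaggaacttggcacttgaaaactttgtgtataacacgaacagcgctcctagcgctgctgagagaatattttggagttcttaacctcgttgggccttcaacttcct
Pgam1: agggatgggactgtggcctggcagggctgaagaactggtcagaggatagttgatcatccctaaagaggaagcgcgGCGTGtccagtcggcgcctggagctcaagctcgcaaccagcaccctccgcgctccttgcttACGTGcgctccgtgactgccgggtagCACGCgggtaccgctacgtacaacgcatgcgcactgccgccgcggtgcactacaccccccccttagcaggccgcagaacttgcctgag
Egln3: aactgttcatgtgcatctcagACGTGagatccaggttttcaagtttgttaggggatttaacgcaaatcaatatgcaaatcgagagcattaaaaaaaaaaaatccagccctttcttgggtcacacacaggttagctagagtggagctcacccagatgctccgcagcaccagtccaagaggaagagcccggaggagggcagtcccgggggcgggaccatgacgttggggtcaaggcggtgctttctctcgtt
P4ha1: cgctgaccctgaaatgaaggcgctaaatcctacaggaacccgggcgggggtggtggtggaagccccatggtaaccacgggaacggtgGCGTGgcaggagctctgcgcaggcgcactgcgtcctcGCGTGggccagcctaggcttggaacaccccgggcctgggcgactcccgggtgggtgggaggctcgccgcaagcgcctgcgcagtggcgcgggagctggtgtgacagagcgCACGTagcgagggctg
Pdk1: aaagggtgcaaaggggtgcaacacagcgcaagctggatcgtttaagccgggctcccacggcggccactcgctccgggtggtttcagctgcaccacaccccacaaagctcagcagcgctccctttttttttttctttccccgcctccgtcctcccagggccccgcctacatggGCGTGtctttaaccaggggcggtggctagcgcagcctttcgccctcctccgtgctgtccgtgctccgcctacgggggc
Ldha: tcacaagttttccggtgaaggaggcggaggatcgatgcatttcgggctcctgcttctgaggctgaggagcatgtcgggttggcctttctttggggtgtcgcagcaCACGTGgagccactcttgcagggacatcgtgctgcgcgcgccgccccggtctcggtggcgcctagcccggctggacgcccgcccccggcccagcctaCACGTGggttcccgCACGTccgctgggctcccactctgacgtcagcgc

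These windows lay at Hk2 chr6:82774455-82774704 (- strand), Hk3 chr13:55021386-55021635 (- strand), Pgam1 chr19:41911621-41911870 (+ strand), Egln3 chr12:54203875-54204124 (- strand), P4ha1 chr10:59323046-59323295 (+ strand), Pdk1 chr2:71872974-71873223 (+ strand) and Ldha chr7:46845554-46845803 (+ strand). Ldha had 5 matches, of which the nearest began 34 bases before the start site. The 6 members that were over 2-fold higher in lung and had a promoter entry each held ACGTG, among them Bnip3, whose window overlapped an exon and is not printed. Of the 3 members over 2-fold lower, Pdk1 held the form GCGTG, and Vhl and Eno2 held neither form in this window. Of the 27 members within 2-fold that had an entry, 12 (44.4%) held ACGTG, beside the 50% of all members with an entry. Groups of 6 and 3 genes are small, and a link of the motif to the lung-to-spleen ratio was not tested. A match in the letters is a description and does not show binding.

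Of the 39 members, 7 were over 2-fold higher in lung, which was 17.9% beside 17.8% of the 12094 genes that reached 1 FPKM in at least 1 library. A further 3 members were over 2-fold lower (7.69%), beside 15.5% of all these genes. The share of members higher in lung was therefore near that of genes at large. The 7 were Hk2, Hk3, Pgam1, Epas1, Egln3, Bnip3 and P4ha1, and the 3 were Eno2, Pdk1 and Vhl. In the GENCODE M21 annotation of GRCm38 the genes lie as follows: Hk2 at chr6:82725025-82774454 (- strand), Hk3 at chr13:55005985-55021385 (- strand), Pgam1 at chr19:41911923-41918660 (+ strand), Eno2 at chr6:124760053-124769673 (- strand), Pdk1 at chr2:71873224-71903858 (+ strand), Epas1 at chr17:86753700-86833410 (+ strand), Vhl at chr6:113623959-113631633 (+ strand), Egln3 at chr12:54178981-54203860 (- strand), Bnip3 at chr7:138890836-138909519 (- strand) and P4ha1 at chr10:59323296-59373304 (+ strand). The median log2 ratio of lung to spleen was 0.28 over the members and 0.03 over all genes. Of the 39 members, 25 were above 0, beside 51.5% of all genes. Because the FPKM summed to 599633 in spleen and 808853 in lung, rescaling both to the same sum (TPM) lowered every log2 ratio by 0.43, except that of Eno2, which was set by the floor. It turned the median of the members to −0.15 and that of all genes to −0.40, with 15 members above 0. It left 4 members over 2-fold higher and 9 lower, with Slc2a3, Slc2a6, Hk1, Arnt, Egln1 and Ankrd37 added to the lower ones. Setting the T cell markers to a median ratio of 1 instead raised the same log2 ratios by 0.20, with 10 members over 2-fold higher and 2 lower. The shares of all genes past 2-fold were not computed under these scalings, so these counts describe the scaling and not the members. The median of the members lay 0.25 above that of all genes, a gap that a single factor on a library cannot alter. In bulk RNA of this kind, fewer cells of a type and less RNA per cell cannot be told apart.

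The shares of genes past 2-fold depended on abundance. Among 4815 genes whose higher library was at 1 to 10 FPKM, 27% were over 2-fold higher and 25% over 2-fold lower in lung, and of the 13 members in this range 4 were higher and 1 was lower. Among 5970 genes at 10 to 100 FPKM these shares were 10.5% and 10.4%, and of 17 members 2 were higher and 2 lower. Among 1309 genes at 100 FPKM or more the shares were 17.1% and 3.28%, and of 9 members 1 was higher and none was lower. All 9 abundant members were above 0, as were 75.2% of all genes at this level, whose median log2 ratio was 0.38. The abundant members had a median of 0.65. At 10 to 100 FPKM the median was 0.07 for members and −0.04 for all genes. At 1 to 10 FPKM these medians were 0.14 and 0.006.

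**Figure D1:**
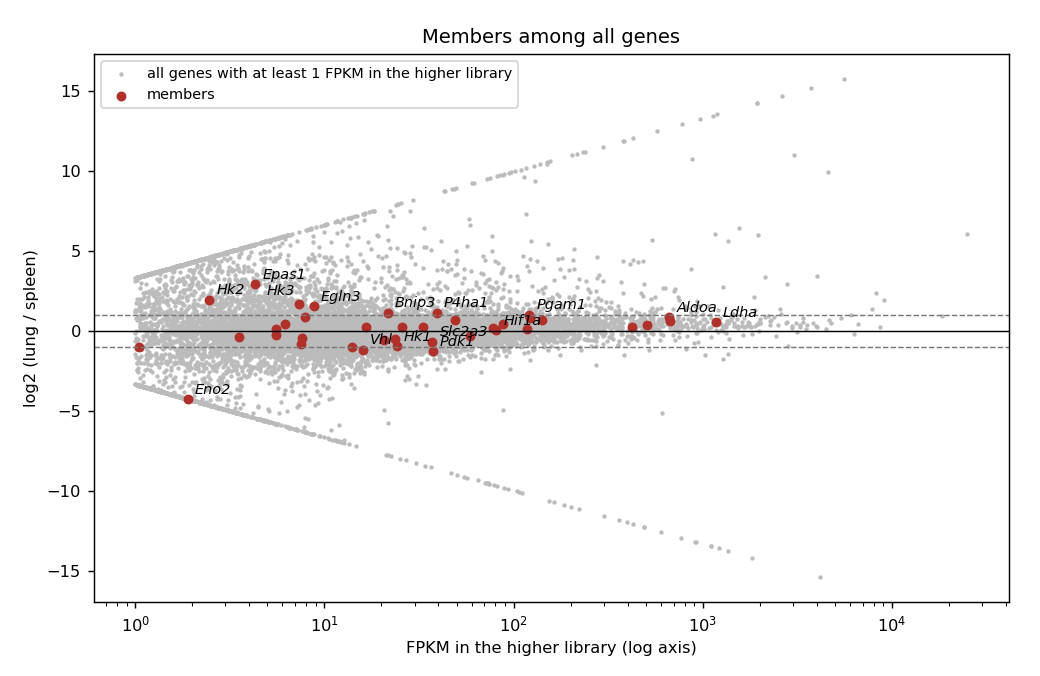
The log2 ratio of lung to spleen (vertical axis, values under 0.1 FPKM set to 0.1) is plotted against the FPKM of the higher library (horizontal log axis) for 12094 genes in grey and the 39 members in red, with dashed lines at 2-fold. Most members lie between the dashed lines, with Epas1 highest at 2.94 and Eno2 at the lower edge formed by genes listed under 0.1 FPKM in lung.

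The glucose transporters were lower in lung. Slc2a1, the widely expressed transporter of basal glucose uptake, stood at 23.7 FPKM in spleen and 17.2 in lung. Slc2a3, a transporter of high affinity that is abundant in lymphocytes and neurons, was at 37.2 and 23.7 FPKM. Their log2 ratios were −0.46 and −0.65, and both counting intervals lay below 0 (−0.62 to −0.31 and −0.77 to −0.53). Slc2a6, a transporter found in leukocytes, was at 1.05 and 0.532 FPKM, with about 19.7 and 11.3 reads behind the values and an interval from −2.25 to 0.08. None of the 3 passed 2-fold as deposited, and all 3 stayed below 0 under every scaling tried. Under TPM, Slc2a3 and Slc2a6 passed 2-fold with log2 ratios of −1.08 and −1.41.

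Hexokinases, which phosphorylate glucose as it enters the pathway, differed in composition. Hk1, the housekeeping form, stood at 24.1 FPKM in spleen and 12.5 in lung. Hk2, a form that is induced by HIF and insulin and binds mitochondria, was at 0.637 and 2.47 FPKM. Hk3, a form expressed mainly in myeloid cells, was at 2.31 and 7.35 FPKM. Hk1 was thus the leading form in both libraries, while the minor forms were higher in lung. The log2 ratio was −0.94 for Hk1 (−1.10 to −0.79), 1.95 for Hk2 (1.42 to 2.53) and 1.67 for Hk3 (1.26 to 2.07). Hk2 rested on about 35 reads in spleen and 154 in lung. Hk1 made up 89.1% of the summed FPKM of these 3 hexokinases in spleen and 56.1% in lung, while Hk3 made up 8.55% and 32.9%. Of the 12 macrophage markers, 9 were over 2-fold higher in lung, while Adgre1, Csf1r and Mrc1 were within 2-fold. Those with the widest ratios were Lyz2 at 376 FPKM in spleen and 24947 in lung, Spp1 at 4.62 and 4560, Chil3 at 17.4 and 1161, and Cd68 at 43.0 and 368. The part of macrophage RNA in the hexokinase values was not tested.

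The middle steps of upper glycolysis were closer together. Gpi1, which converts glucose 6-phosphate to fructose 6-phosphate, stood at 106 FPKM in spleen and 118 in lung. Phosphofructokinase commits the sugar to glycolysis, and its platelet-type subunit Pfkp led with 58.5 and 47.5 FPKM, a log2 ratio of −0.30. The liver-type Pfkl was at 21.4 and 25.6 FPKM, and the muscle-type Pfkm was at 4.48 and 6.19 FPKM. These isozymes of phosphofructokinase thus differed by less than 2-fold, and Pfkl changed sign under TPM. Pfkp shares 16.6% of its 75-base windows with the overlapping gene Pitrm1, which was at 23.0 and 7.97 FPKM. Pfkfb3 and Pfkfb4 make fructose 2,6-bisphosphate, the activator of phosphofructokinase. Pfkfb3 was at 5.04 and 5.55 FPKM and Pfkfb4 at 3.52 and 2.69 FPKM, and the counting interval of each spanned 0.

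Aldolase and triose phosphate isomerase, which split the sugar and interconvert its parts, were higher in lung. Aldoa, the main form outside liver and brain, stood at 368 FPKM in spleen and 666 in lung, with a log2 ratio of 0.86 (0.81 to 0.91). Tpi1 was at 67.2 and 121 FPKM, with a log2 ratio of 0.85 (0.74 to 0.96). Both remained above 0 under TPM, at 0.43 and 0.42, and neither passed 2-fold as deposited. Aldoc, the brain form, was at 5.55 and 4.68 FPKM, and Aldoa held 98.5% of the summed FPKM of Aldoa and Aldoc in spleen and 99.3% in lung.

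**Figure D2:**
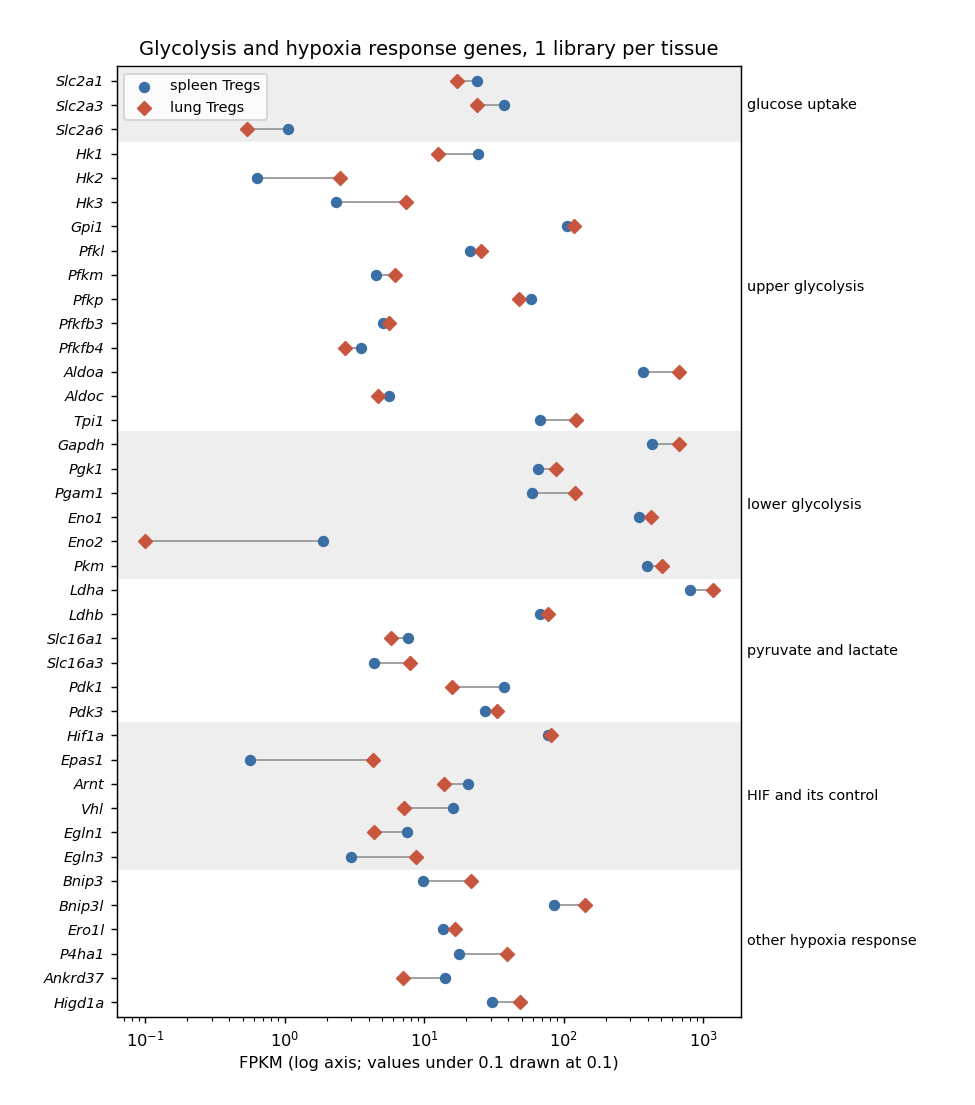
FPKM of the 39 members in the library of spleen Tregs (circles) and of lung Tregs (diamonds), grouped by role, on a log axis where values under 0.1 are drawn at 0.1. The lowest levels are those of Eno2, listed at 0 in lung, Slc2a6 at 0.532 FPKM in lung and Epas1 at 0.563 FPKM in spleen, the highest is Ldha at 800 and 1167 FPKM, and the widest gaps are those of Eno2, Epas1, Hk2 and Hk3.

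The payoff steps of lower glycolysis were mostly higher in lung as deposited, with Eno2 as the exception, while Pgk1, Eno1 and Pkm turned below 0 under TPM. Gapdh, which oxidises glyceraldehyde 3-phosphate and is often used as a reference gene, stood at 427 FPKM in spleen and 668 in lung. Pgk1, the first step that yields ATP, was at 65.6 and 88.2 FPKM. Pgam1, which moves the phosphate group within phosphoglycerate, was at 59.2 and 121 FPKM and was the single abundant enzyme past 2-fold, with a log2 ratio of 1.03 (0.92 to 1.14). It came to 0.60 under TPM, below 2-fold. Actb, a common reference gene outside the pathway, stood at 1325 FPKM in spleen and 1242 in lung. Gapdh had a log2 ratio of 0.65 and Actb of −0.09, so these reference genes did not give the same lung-to-spleen ratio.

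Eno1, the ubiquitous enolase, was at 346 and 422 FPKM. Eno2, the enolase of neurons and a known hypoxia target, was at 1.89 FPKM in spleen, from about 46.7 reads, and was listed at 0 in lung. A count of 3 reads, the limit that a count of 0 allows, would be 0.107 FPKM in lung. The spleen value was 17.7-fold above that limit, without allowance for counting error in spleen. With it, the upper end of the counting interval of the log2 ratio was −3.80. Pkm, the pyruvate kinase that completes the pathway, was at 392 and 508 FPKM with a log2 ratio of 0.37. Several of these genes have processed copies in the genome. The share of 75-base windows found in transcripts of other genes was 80.3% for Gapdh, 67.5% for Pgk1, 65.4% for Eno1, 40.6% for Pgam1 and 19.6% for Pkm. How reads that fit several places were counted was not given in the sources used here, so the values of these genes are uncertain. Eno1b, which shares 64.2% of the windows of Eno1, was listed at 89.2 FPKM in spleen and 123 in lung, a log2 ratio of 0.46 beside 0.28 for Eno1.

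Taking the leading isozyme of each of 11 steps from hexokinase to lactate dehydrogenase, 9 were above 0 with a median log2 ratio of 0.43. All genes at 100 FPKM or more had a median near this, 0.38, with 75.2% above 0. Some of the 11, such as Hk1 and Pfkp, were below that level. This set was formed after the values had been seen. Under TPM 5 of the 11 were above 0, with a median near 0 (−0.005), beside −0.05 for genes at 100 FPKM or more.

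**Figure D3:**
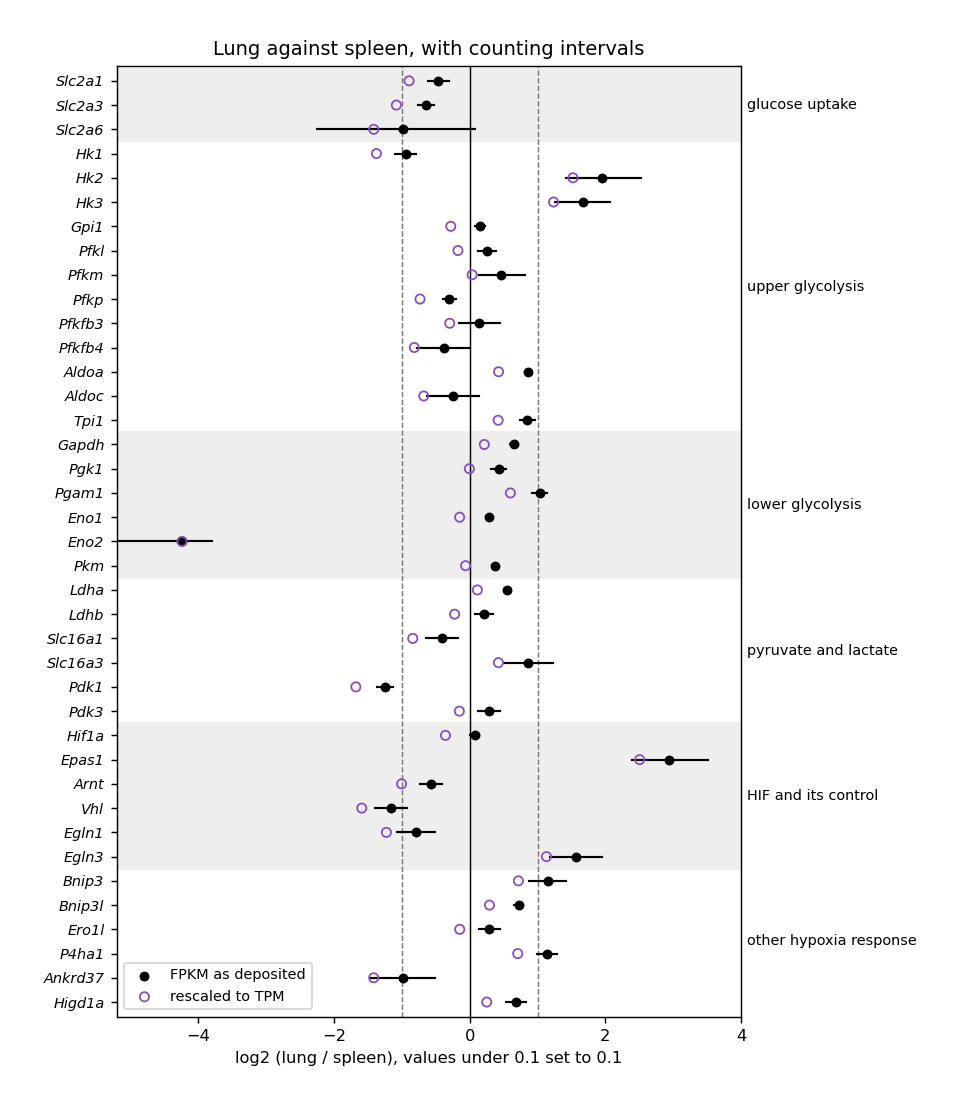
The log2 ratio of lung to spleen for the 39 members by role, with filled points for FPKM as deposited, lines for 95% counting intervals, open circles after rescaling to TPM and dashed lines at 2-fold. Eno2 is drawn at −4.24 against the floor of 0.1 FPKM with its interval cut at the left edge, and the open circles lie 0.43 to the left of the points for the other members.

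Lactate dehydrogenase A was the most abundant member in both libraries. Ldha, the form that favours conversion of pyruvate to lactate, stood at 800 FPKM in spleen and 1167 in lung, ranks 110 and 106 among all symbols. Its log2 ratio was 0.54 (0.51 to 0.58), and 0.11 under TPM. Ldhb, the form that favours the reverse reaction, was at 67.1 and 77.6 FPKM. Ldha thus exceeded Ldhb 11.9-fold in spleen (11.1 to 12.8) and 15.0-fold in lung (14.1 to 16). The ratio of Ldha to Gapdh was 1.87 in spleen and 1.75 in lung.

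The lactate transporters stood in a different order in the 2 libraries. Slc16a1, which carries lactate in either direction, stood at 7.61 FPKM in spleen and 5.73 in lung. Slc16a3, an exporter of lactate in glycolytic cells and a known HIF target, was at 4.35 and 7.87 FPKM. Slc16a3 was therefore the lesser of these transporters in spleen and the greater in lung. The ratio of Slc16a3 to Slc16a1 was 0.572 in spleen (0.450 to 0.716) and 1.37 in lung (1.14 to 1.65). Neither gene alone passed 2-fold, with log2 ratios of −0.41 and 0.86.

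The pyruvate dehydrogenase kinases, which inhibit pyruvate dehydrogenase, likewise differed in order. Pdk1, a HIF target in many cells, stood at 37.3 FPKM in spleen and 15.7 in lung, a log2 ratio of −1.25 (−1.36 to −1.13). Pdk3, another kinase of this family, was at 27.3 and 33.2 FPKM. Pdk1 was the greater of these kinases in spleen and Pdk3 in lung. With Pdk2 and Pdk4 added to the family, Pdk1 held 49.0% and Pdk3 35.9% of the FPKM in spleen, and 27.6% and 58.4% in lung. The ratio of Pdk3 to Pdk1 was 0.734 in spleen (0.666 to 0.808) and 2.11 in lung (1.92 to 2.33). Known targets of HIF or hypoxia among the members lay on both sides of 0 under each scaling tried. Pdk1, Eno2, Slc2a1 and Ankrd37 lay below 0. Hk2, Slc16a3, Egln3, Bnip3, P4ha1 and Higd1a lay above 0. These names are examples and not a full count of such targets on either side.

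**Figure D4:**
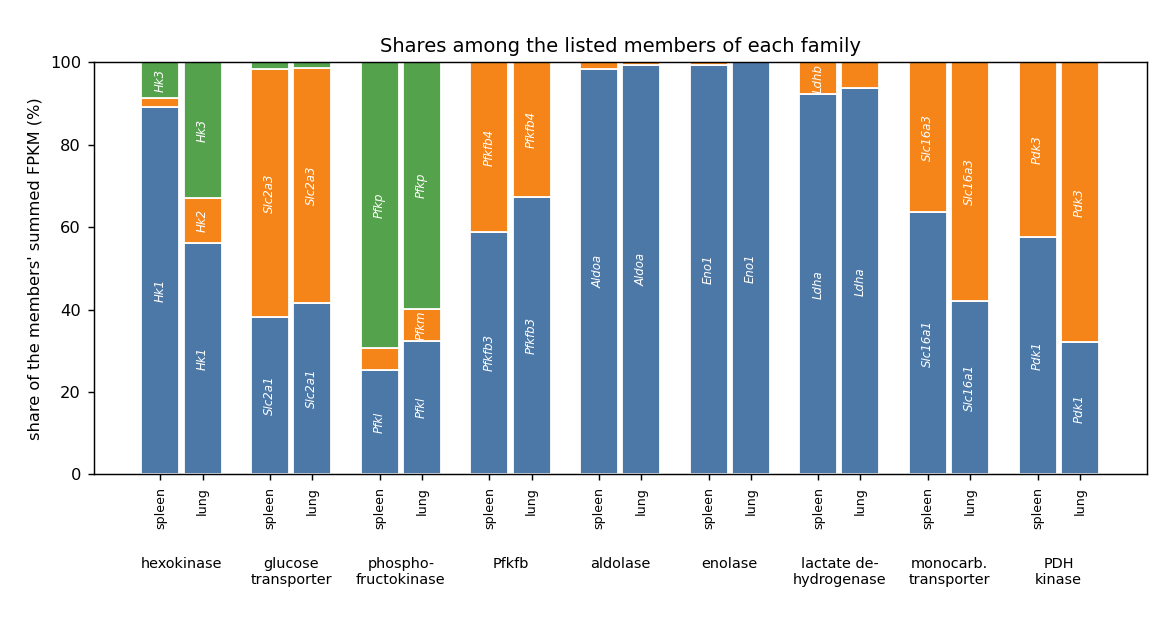
Stacked bars give the share of each member in the summed FPKM of the members of its family, in percent, without isozymes outside the list such as Pdk2, Pfkfb1 and Eno3, in the spleen (left bar of each pair) and lung (right bar) library, with narrow slices unlabelled. Such shares do not depend on scaling between libraries. Among the shares drawn, the widest shifts are those of Hk1, from 89.1% to 56.1%, and of Pdk1 and Pdk3, where Pdk3 goes from 42.3% to 67.9%. Isozymes that are not drawn can shift as well, as Pfkfb1 does from 20.8% to 48.2% of its wider family.

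The HIF subunits were unlike each other. Hif1a, the oxygen-regulated alpha subunit in most cells, stood at 76.8 FPKM in spleen and 80.8 in lung, with a log2 ratio of 0.07 (0.01 to 0.14) that turned to −0.36 under TPM. Epas1, the alpha subunit HIF2 alpha that is high in endothelium and lung cells, was at 0.563 and 4.31 FPKM. Epas1 had the highest ratio of the members, 7.66-fold or 2.94 on the log2 scale (2.39 to 3.52), from about 31.0 and 269 reads. Hif1a exceeded Epas1 136-fold in spleen (95.8 to 201) and 18.8-fold in lung (16.6 to 21.3). Arnt, the constant partner of both alpha subunits, was at 20.6 and 13.9 FPKM. Of 7 endothelial markers, 4 reached 1 FPKM and 3 of these were over 2-fold higher in lung, Egfl7 among them at 0.101 and 8.04 FPKM. The remaining one, Pecam1, was lower in lung, at 54.8 and 31.7 FPKM. Cdh5 and Tek were at 0 in spleen and Kdr in lung. The list summed to 55.5 FPKM in spleen and 48.9 in lung, of which Pecam1 gave the greater part in each library. The part of endothelial and macrophage RNA in the value of Epas1 was not tested.

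Genes whose products lower HIF differed in direction. Vhl stood at 15.9 FPKM in spleen and 7.14 in lung, a log2 ratio of −1.16 (−1.40 to −0.92). Egln1, the main oxygen sensor among the prolyl hydroxylases, was at 7.56 and 4.36 FPKM, with −0.80. Egln3, a prolyl hydroxylase that is itself induced by hypoxia, was at 2.97 and 8.78 FPKM, with 1.56 (1.18 to 1.95). Egln1 was thus the greater of these hydroxylases in spleen and Egln3 in lung. The ratio of Egln3 to Egln1 was 0.393 in spleen (0.302 to 0.512) and 2.02 in lung (1.65 to 2.46). Vhl fell short of 2-fold when the libraries were set to equal T cell markers, with −0.96.

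Of 6 other hypoxia response genes, 5 were above 0 as deposited, beside 51.5% of all genes that reached 1 FPKM. Of the 6, 2 were over 2-fold higher, beside 17.8% of all these genes and 10.5% of those at 10 to 100 FPKM. A group of 6 genes is small, and no test was made. Bnip3, a receptor for the removal of mitochondria by autophagy, stood at 9.72 FPKM in spleen and 21.6 in lung, a log2 ratio of 1.15 (0.88 to 1.43). P4ha1, a subunit of the prolyl hydroxylase that modifies collagen, was at 17.8 and 39.2 FPKM, with 1.14 (0.99 to 1.29). Both came under 2-fold after rescaling to TPM, at 0.72 and 0.71. Bnip3l, a relative of Bnip3 with the same role, was at 85.7 and 142 FPKM. Higd1a, a mitochondrial protein induced by hypoxia, was at 30.4 and 48.8 FPKM. Their log2 ratios were 0.72 and 0.68, and both remained above 0 under TPM. Ero1l, an oxidase that forms disulfide bonds in the endoplasmic reticulum, was at 13.6 and 16.6 FPKM and turned below 0 under TPM. Ankrd37, a HIF target of little known function, was at 14 and 7.08 FPKM, with −0.98 (−1.46 to −0.51), and was the single gene of these 6 that was lower in lung. Bnip3, Higd1a and Bnip3l share 46.3%, 34.3% and 20.6% of their windows with other transcripts, so these values are uncertain. Collagen genes were also present in lung, with Col1a2 at 0.0391 FPKM in spleen and 13.4 in lung, and the part of fibroblast RNA in P4ha1 was not tested.

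Neighbouring pathways were read from fixed lists in the same way. The counts of each list below stand beside 17.8% over 2-fold higher and 15.5% over 2-fold lower among all genes that reached 1 FPKM. Of 28 other glycolysis genes, 17 reached 1 FPKM in the higher library, with 1 over 2-fold higher, 3 lower and a median log2 ratio of −0.11. Pfkfb1, a further isozyme of Pfkfb3, was the one higher, at 3.02 and 8.44 FPKM. Among the 4 genes of the Pfkfb family it held 20.8% of the FPKM in spleen and 48.2% in lung. Mpc1, a subunit of the mitochondrial pyruvate carrier, was at 115 and 216 FPKM. Pdk2, another pyruvate dehydrogenase kinase, was at 11.5 and 7.98 FPKM, and Bpgm, which makes 2,3-bisphosphoglycerate, was at 13.9 and 21.1 FPKM.

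All 8 genes of the pentose phosphate pathway, which branches from glucose 6-phosphate, reached 1 FPKM. Of these 1 was over 2-fold higher and 1 lower, and the median was 0.48. The transaldolase Taldo1 stood at 162 FPKM in spleen and 341 in lung, and the transketolase Tkt was at 62.3 and 87.1 FPKM. Rpe, an epimerase, was at 16.4 and 30.9 FPKM, and Pgls, a lactonase, was at 70.9 and 108 FPKM. Of the 17 genes of the TCA cycle, the mitochondrial route that oxidises the products of pyruvate, none passed 2-fold, with a median of 0.16 and a range from −0.37 to 0.73. The succinate dehydrogenase subunit Sdhd was at 116 and 193 FPKM and the malate dehydrogenase Mdh2 at 313 and 431 FPKM. Idh3g, a subunit of isocitrate dehydrogenase, was at 114 and 175 FPKM, and Sdhc at 62.5 and 84.8 FPKM. Of 7 genes of gluconeogenesis, 3 reached 1 FPKM and none passed 2-fold, with Pck2 at 9.37 and 6.73 FPKM and G6pc3 at 15.3 and 23.6 FPKM.

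Further hypoxia genes were spread widely. Of 28, 21 reached 1 FPKM, with 7 over 2-fold higher, 3 lower and a median of 0.05. Among all genes that reached 1 FPKM, 17.8% were over 2-fold higher and 15.5% lower, with a median of 0.03. Adm, a vasodilator peptide, stood at 0.493 FPKM in spleen and 7.39 in lung. Plin2, which coats lipid droplets and is abundant in lung macrophages that store lipid, was at 11.9 and 176 FPKM. Gys1, the glycogen synthase of muscle and most tissues, was at 7.22 and 0.0489 FPKM, and Rora, a nuclear receptor, was at 5.93 and 26.5 FPKM. Of these 4 genes, Gys1 was lower and the others were higher in lung. The part of other cells in these values was not tested.

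Of 10 upstream regulators, 1 was over 2-fold higher and 2 were lower, with a median of −0.04, beside 17.8% and 15.5% of all genes. Myc, a transcription factor that drives glycolytic genes in activated T cells, stood at 80.3 FPKM in spleen and 38.1 in lung. Tsc1, an inhibitor of mTORC1, was at 7.88 and 3.68 FPKM. Irf4, a factor of effector Tregs, was at 6.57 and 16.2 FPKM, and Rptor, a subunit of mTORC1, was at 3.77 and 6.77 FPKM. Myc and Tsc1 were thus lower and Irf4 and Rptor higher in lung as deposited. The 8 cell cycle markers, with 2 over 2-fold higher and 7 above 0, had a median of 0.44. The 8 Treg markers, with 3 over 2-fold higher and 1 lower, had a median of 0.48.

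**Figure D5:**
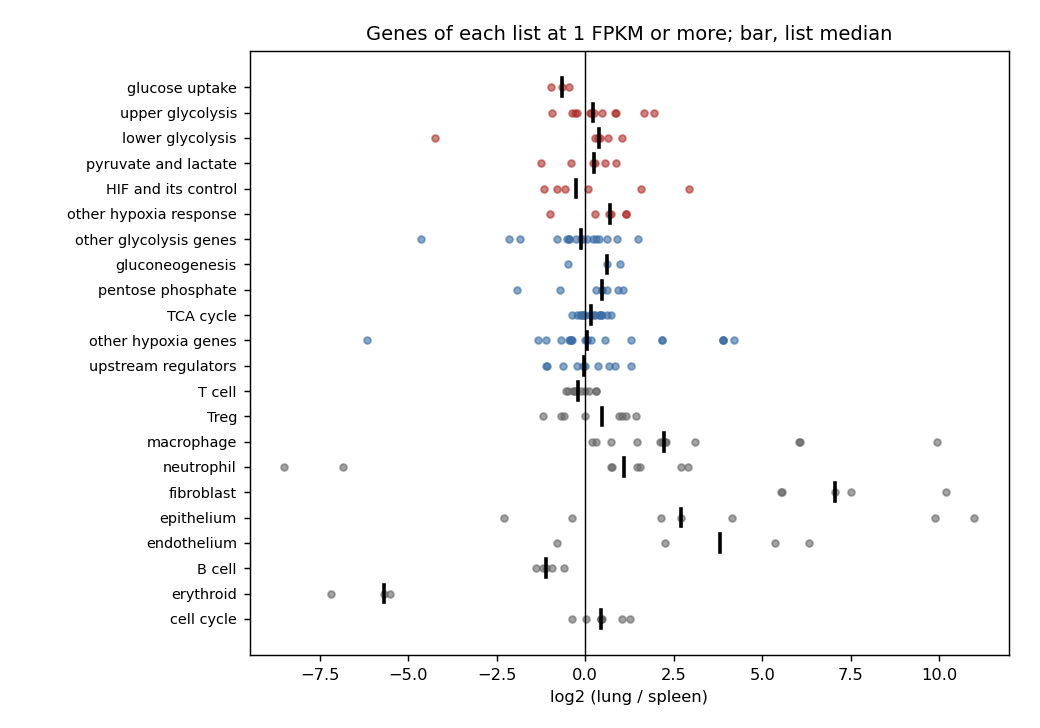
Each point is a gene that reached 1 FPKM in either library, placed by its log2 ratio of lung to spleen, with red for the roles of the members, blue for the neighbouring lists, grey for cell markers and black bars for list medians. Member lists have medians from −0.65 (glucose uptake) to 0.70 (other hypoxia response), while the macrophage markers have a median of 2.21 and the fibroblast markers of 7.06.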

How the data were processed

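The bulk RNA-seq series holds 1 library of splenic and 1 of lung GFP+CD4+ cells of FDG mice. According to the submitters' processing notes and the study's methods, single-end reads of 75 bases were aligned by the authors to mm10 using TopHat2 2.1.1, Bowtie2 2.2.8 and SAMtools 0.1.18, and FPKM were deposited from Cuffdiff 2.2.1. The annotation, the counting of multiply mapped reads and any scaling between libraries were not given in the sources used here.

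Ratios of lung to spleen were computed after raising values under 0.1 FPKM to 0.1, and genes past 2-fold were counted among those that reached 1 FPKM in either library. The members and all lists were chosen with earlier results of these data known. All members are named. From pathway lists, the genes with the widest ratios, at most 4 in each and with at least 5 FPKM, are named, together with sort genes and copies of members. Of marker lists some such genes are named, and markers at 0 were named whatever their level. Adgre1, Csf1r and Mrc1, the macrophage markers within 2-fold, are named as well. Actb and the isozymes Pdk4 and Eno3 were added after their values were seen.

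Reads were estimated from FPKM and GENCODE M21 transcript lengths, which were found for 23650 symbols (97.1%), with a fragment mean of 200, an SD of 80 and a shortest fragment of 71. At an effective transcript length of 1 kb a single read was worth 0.0965 FPKM in spleen and 0.0850 FPKM in lung. Of low values in genes with one length, 72.6% and 74.7% lay within 0.1 of whole reads. The steps were tested on simulated data. The tools were scipy 1.17.1, pandas 2.3.3, matplotlib 3.10.9 and numpy 2.4.6 in Python 3.11.15.

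Alternatives were other floors, pseudocounts, scalings, filters and folds. A floor of 3 estimated reads in each library, and leaving out members that share over 10% of windows with other genes, were added after seeing the data.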

Additional observations from a re-analysis of the deposited data

How the results depend on the processing

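With FPKM as deposited, 7 members were over 2-fold higher in lung, 3 were over 2-fold lower and the median log2 ratio was 0.28. Rescaling to TPM gave 4 higher, 9 lower and a median of −0.15, the opposite sign, since it lowers each ratio but that of Eno2 by the same amount. Rescaling to the T cell list gave a median of 0.48. The median over all genes moved as well, to −0.40 under TPM and 0.23 under the T cell list. A fold of 1.5 gave 13 higher and 8 lower, and a fold of 3 gave 3 higher and 1 lower, by construction. Keeping the 26 members that reached 10 FPKM in either library left 3 higher. Without members that share over 10% of their windows with other genes, the median over the other 28 was 0.11, and the cause was not tested. The other floors, pseudocounts, filters and scalings left the counts within 1.5 times and moved the median by less than 0.153, the median width of a counting interval to each side. The 10 members past 2-fold kept their direction under each floor, pseudocount and scaling. TPM took Pgam1, Bnip3 and P4ha1 below 2-fold, the T cell list took Vhl, and a floor of 1 FPKM took Eno2. Counting intervals excluded 0 for 35 of 39 members as deposited, but they cover neither the variation between mice, which 1 library in each tissue cannot show, nor the choice of scaling. No paired analysis was possible because there was 1 library in each tissue and the result comes from no test.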
